A study of Mus musculus with 11 samples.

Results

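DN3 thymocytes and common lymphoid progenitors (CLP) are mouse lymphocyte precursors that both carry the machinery to cut and rejoin antigen receptor genes, one on the way to T cells in the thymus and the other in the bone marrow, from which B cells arise. Here the 2 arrays of DN3 cells were set against the 2 arrays of CLP over all genes, so that 4 of the 11 arrays of the study carry the comparison. The other 7 arrays hold blood stem cells (HSC, 2), lymphoid-primed multipotent progenitors (LMPP, 2), early thymic precursors (ETP, 2) and double negative 2 thymocytes (DN2, 1), and entered the fit only through the estimate of the spread and, as levels, for orientation. All cells were labelled as coming from the inbred strain C57BL/6J. No genotype, treatment or age was given for any group. CLP were labelled as bone marrow and DN3 as thymus, although a description and the cell type label of the DN3 arrays also name bone marrow. The tissue label and the design text, which give thymus, were followed, and population and tissue cannot be told apart. The sort gates were not given in the sources used here, nor was it said whether replicates came from separate animals or pools, so p-values measure only the spread between these arrays, which may be technical.

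Antigen receptors are assembled by RAG1 and RAG2, which cut DNA beside the gene segments, by end joining proteins that rejoin the ends, and by terminal transferase (Dntt), which adds bases at the joint. A thymocyte at the DN3 stage rearranges the beta chain locus and tests the product as a pre-T cell receptor, in which the beta chain pairs with pre-T alpha (Ptcra) and signals through the CD3 chains. A precursor that turns to the B lineage instead switches on EBF1 and PAX5 and tests a heavy chain with the surrogate light chain (Vpreb1, Igll1), which signals through CD79A and CD79B. CD25 (Il2ra), CD44 and KIT are commonly used to sort the thymic stages, and IL7R, FLT3 and KIT to sort CLP, so that differences in their genes may repeat a gate.

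The arrays had median log2 intensities between 6.01 and 6.12. The 2 CLP arrays correlated at 0.9905 and the 2 DN3 arrays at 0.9957 across genes, against 0.9641 to 0.9697 between populations. Of 8 measured DN3 markers 7 were higher in DN3, and of 10 CLP markers 6 were lower. Of 8 markers of committed B cells and plasma cells, 6 lay within the range of olfactory receptor genes in both populations. That range, below a log2 intensity of 5.86 (the 95th percentile of 1027 olfactory receptor genes), served as a stand-in for background, since the values come without detection calls. A fold against a group in it understates the ratio of transcripts. RNA was bulk, so fewer cells with a transcript and less of it per cell cannot be told apart.

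Of 19938 genes tested, 1733 differed between DN3 and CLP at an adjusted p under 0.05 (limma, two-sided, Benjamini-Hochberg), which is 8.69% of all genes. The called genes split into 900 higher in DN3 (4.51%) and 833 lower (4.18%), and these shares are the background against which the counts below are read. The gene lists were chosen with earlier results of these data known, so their counts are descriptions. In all 1733 both DN3 arrays lay on one side of both CLP arrays, as they did in 10183 of all genes. At least 2-fold differences were found for 278 higher and 399 lower genes, and at least 8-fold differences for 29 and 44. DN3 had the highest of the 6 population means for 685 of the 900 higher genes, while CLP had the highest mean for 406 of the 833 lower genes and HSC, LMPP and ETP for 165, 132 and 113. The counts were smaller without some arrays: without CLP replicate 1 there were 482 higher and 610 lower genes, without DN3 replicate 1 there were 472 and 510, and without DN3 replicate 2 there were 354 and 491.

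**Figure D1:**
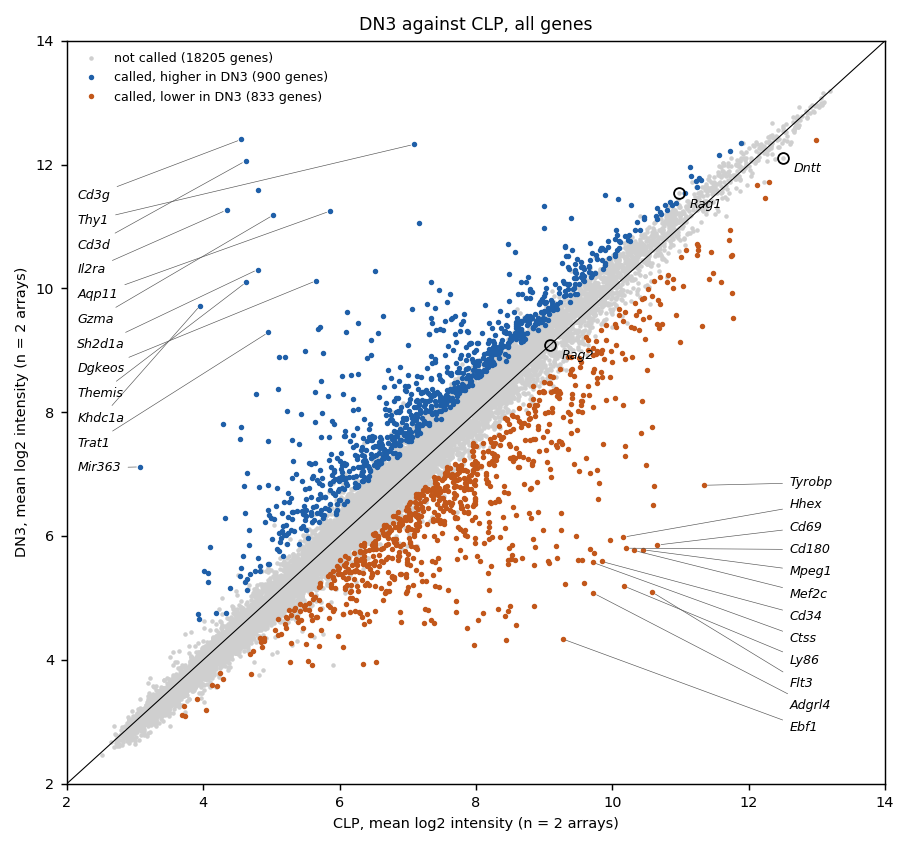
Mean log2 intensity of every gene in CLP (horizontal) and DN3 (vertical), 2 arrays each. Blue points are the 900 genes called higher in DN3, orange points the 833 called lower and grey points the genes not called. The line marks equal levels. The 12 highest and 12 lowest differences under the naming rule are labelled. Circles mark the recombinase and joint diversity genes Rag1, Rag2 and Dntt, which differ by 0.56, -0.01 and -0.39.

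None of the 4 recombinase and joint diversity genes passed the test (limma), 1 higher and 1 lower had an unadjusted p under 0.05, and the median difference was -0.12. Rag1, which encodes the cutting subunit, had log2 intensities of 10.85 and 11.10 in CLP and 11.45 and 11.63 in DN3. The DN3 arrays were both higher, by 0.56 (95% confidence interval 0.20 to 0.92), with an adjusted p of 0.0623 that missed the threshold. Rag2, its partner, measured 9.0 and 9.18 in CLP and 9.09 and 9.08 in DN3, with overlapping arrays and a difference of -0.01 (interval -0.35 to 0.33). Dntt, terminal transferase, measured 12.47 and 12.53 in CLP and 12.06 and 12.16 in DN3, a difference of -0.39 (interval -0.72 to -0.05, adjusted p = 0.169). Dntt was thus lower on both DN3 arrays without passing the threshold. Iftap, the neighbour of Rag2 and the fourth of the list, had a second probe set whose difference had the opposite sign (0.26 against -0.24). Rag1 was lower in the other populations, at 5.84 and 6.11 in HSC, 7.35 and 7.43 in LMPP, 6.85 and 7.25 in ETP and 8.21 in DN2.

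Of 10 measured genes of non-homologous end joining, 4 rose in DN3 and 0 fell, with a median difference of 0.23 against -0.02 for all genes. Lig4, the ligase that seals the ends, measured 7.63 and 7.59 in CLP and 9.89 and 9.93 in DN3. It was 4.90-fold higher in DN3 (log2 2.29, interval 1.97 to 2.62, adjusted p = 3.42e-06), and the DN2 array, at 9.10, was already above the 7.43 and 7.53 of ETP. Xrcc5 (Ku80), which holds the broken ends, rose by 1.12, Xrcc4, the partner of the ligase, by 0.69 and Nhej1 by 0.46. These last calls were thin: Xrcc5 had an adjusted p of 0.067 without DN3 replicate 2, Xrcc4 of 0.0624 without DN3 replicate 1 and Nhej1 of 0.0668 to 0.225 without any 1 of the 4 arrays. The list had 2 called members without DN3 replicate 1 and 2 without DN3 replicate 2. Prkdc and Atm, kinases that sense the breaks, differed by 0.13 and 0.16 and were not called, and both were named after their values were seen.

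**Figure D2:**
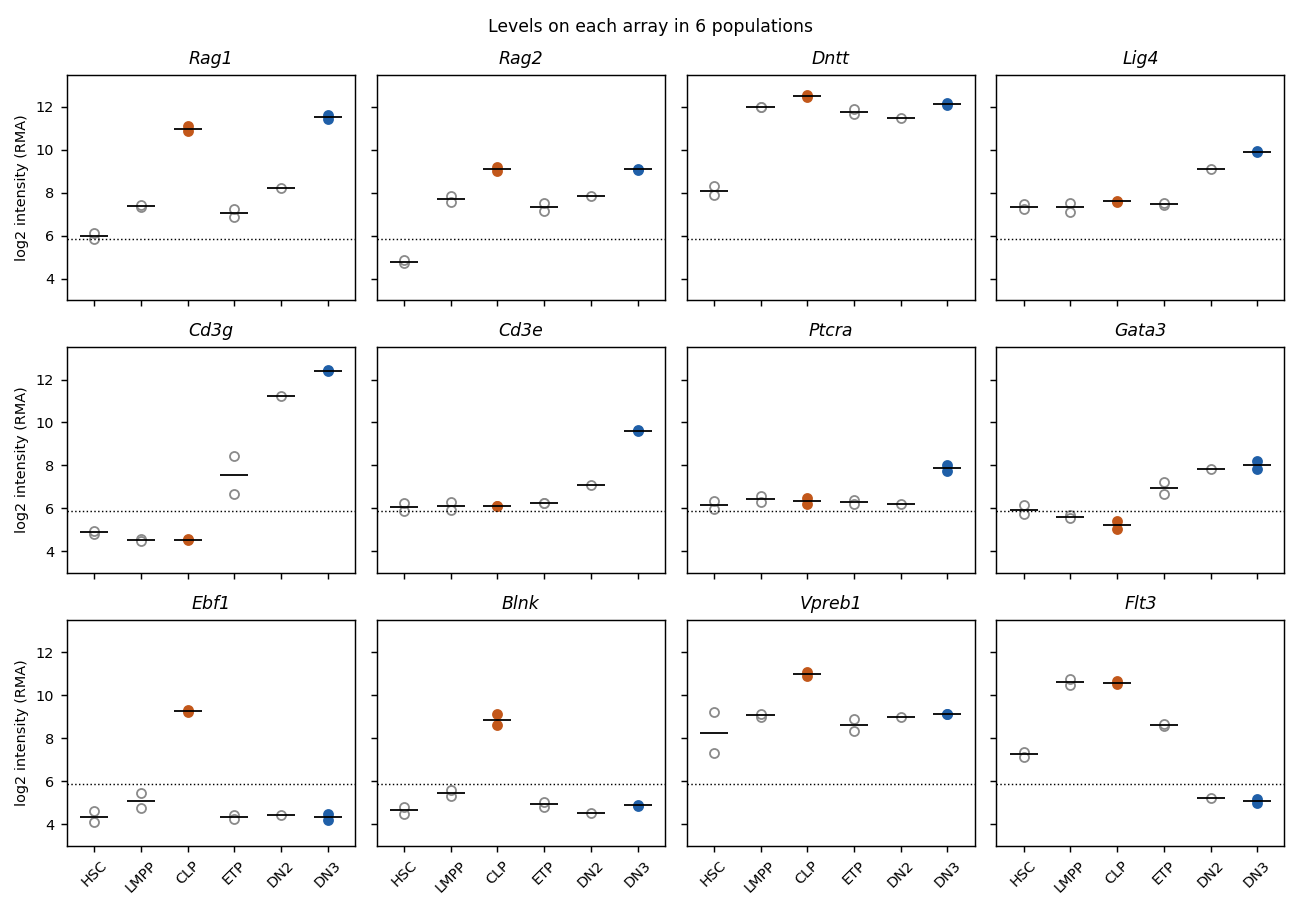
Log2 intensity on each array for 12 genes across the 6 populations. Points are arrays (orange CLP, blue DN3, open grey the others; DN2 has 1), short horizontal lines are means, and the dotted line is the olfactory receptor reference of 5.86; Rag1, Rag2 and Dntt differ by 0.56, -0.01 and -0.39 between CLP and DN3, Cd3g, Cd3e, Lig4 and Gata3 are higher in DN3, and Ebf1, Blnk and Flt3 are higher in CLP.

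The CD3 and pre-T cell receptor genes rose together: all 5 measured members were called higher in DN3, with a median difference of 3.51. Cd3g, a signalling chain of the complex, measured 4.57 and 4.54 in CLP, within the olfactory range, and 12.43 and 12.38 in DN3. That difference of 7.85 (interval 6.96 to 8.74, adjusted p = 7.14e-07) corresponds to 231-fold and was the largest under the naming rule. Cd3d, its neighbour on the chromosome, measured 4.70 and 4.54 in CLP and 12.07 and 12.04 in DN3, which is 174-fold (log2 7.44, adjusted p = 1.57e-07). Cd3e, the chain present in every CD3 pair, rose from 6.12 and 6.09 to 9.64 and 9.59. Ptcra rose from 6.22 and 6.48 to 8.01 and 7.76 (2.89-fold, adjusted p = 0.000154), and Cd247, the zeta chain, rose least of the 5, from 7.04 and 7.06 to 7.89 and 8.01. The stages between differed from gene to gene: Cd3g stood at 6.68 and 8.45 in ETP and at 11.21 in DN2, and Cd3d at 5.51 and 6.80 in ETP and 8.10 in DN2, whereas Ptcra was at 6.22 in DN2.

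Cd3g and Cd3d are read in opposite directions from starts 1355 bases apart on chromosome 9 and rose side by side, so the 250 bases before each start are shown (RefSeq, GRCm38.p6). Cd3g lies on the minus strand (chr9:44980432-44980681) and Cd3d on the plus strand (chr9:44981536-44981785). Capitals mark matches, on either strand, to CANNTG (the E box bound by E proteins), TGTGGT (a Runx core), AGATAA (recognised by factors of the Gata3 family), CTTTGA (a TCF and LEF core), TGGGAA (an RBPJ core) or CCCNNGGG (an EBF1-type palindrome).
Cd3g: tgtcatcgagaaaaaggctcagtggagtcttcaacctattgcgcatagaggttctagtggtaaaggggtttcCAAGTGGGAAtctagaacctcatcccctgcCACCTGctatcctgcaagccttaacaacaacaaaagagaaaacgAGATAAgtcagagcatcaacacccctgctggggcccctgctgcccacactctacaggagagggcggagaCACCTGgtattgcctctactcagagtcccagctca
Cd3d: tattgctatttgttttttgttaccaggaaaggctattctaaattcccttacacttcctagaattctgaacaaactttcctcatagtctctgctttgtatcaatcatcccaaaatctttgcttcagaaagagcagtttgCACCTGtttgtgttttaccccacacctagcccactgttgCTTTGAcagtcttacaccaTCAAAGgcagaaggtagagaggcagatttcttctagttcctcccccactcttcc
The Cd3g window held CANNTG 3 times, AGATAA 1 time and TGGGAA 1 time, the last overlapping a CANNTG match. The Cd3d window held CANNTG 1 time and CTTTGA 2 times, on opposite strands. Over 27025 mouse promoters of the same length, CANNTG occurred in 66.0%, AGATAA in 10.3%, TGGGAA in 21.5% and CTTTGA in 14%, so such matches are common and describe the sequence only.

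Of 17 measured antigen receptor segments 3 rose and 0 fell, and 11 lay within the olfactory range in both populations. Trgv1, a gamma chain variable segment, measured 4.97 and 4.63 in CLP and 11.54 and 11.62 in DN3 (log2 6.78, interval 6.37 to 7.20). It had also stood at 8.04 and 8.37 in HSC and at 11.40 in DN2. Trdv2-2, a delta chain segment, rose by 3.03 and Trbv1, a beta chain segment, by 0.83, the latter with an adjusted p of 0.0657 without DN3 replicate 2. Segments of a locus are near copies of each other, so the assignment of signal to 1 segment is uncertain, and these 3 were named after their values were seen.

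Genes of T cell receptor signalling also rose: 14 of 21 measured members were called higher in DN3 and 0 lower, with a median difference of 0.82. The number called was smaller without CLP replicate 1, DN3 replicate 1 or DN3 replicate 2. Sh2d1a, the adaptor SAP, measured 4.82 and 4.77 in CLP and 10.33 and 10.28 in DN3 (45.4-fold, adjusted p = 1.88e-07). Themis, a thymocyte signalling protein, measured 4.76 and 4.49 in CLP and 10.12 and 10.08 in DN3 (44.3-fold). Both genes had all CLP values within the olfactory range, so these folds are lower than the ratio of transcripts. Trat1, an adaptor of the receptor complex, rose by 4.33 and Skap1, an adaptor of integrin activation, by 3.79. Rasgrp1, which links the receptor to Ras, rose by 2.54 and Lat, the membrane scaffold, by 2.33. Lat measured 9.16 and 8.83 in CLP and 11.34 and 11.32 in DN3, above the olfactory range in both. Zap70, the kinase that binds phosphorylated CD3 chains, rose by 0.71 from 5.82 and 5.61 to 6.34 and 6.51, with an adjusted p of 0.0657 without CLP replicate 2 and 0.116 without DN3 replicate 2. Fyn, a Src family kinase named after its value was seen, differed by -0.32 (interval -0.82 to 0.17).

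Among 19 T cell surface and costimulatory receptors, 8 rose and 4 fell, with a median of -0.05 that turned to 0.02 with quantile normalization once more and to 0.00 with centred arrays. Il2ra, the CD25 chain of the interleukin 2 receptor, measured 4.44 and 4.24 in CLP and 11.30 and 11.23 in DN3 (121-fold, adjusted p = 2.83e-08). It stood at 6.96 and 7.68 in ETP and at 11.40 in DN2. Thy1, a surface glycoprotein of T lineage cells, measured 7.18 and 7.0 in CLP and 12.34 and 12.31 in DN3, and was not near background in either. Ctla4, an inhibitory receptor of activated T cells, rose by 2.01 from 6.32 and 6.07 to 8.13 and 8.28. In the other direction, Cd44, an adhesion receptor lost between DN2 and DN3, fell by 2.89 and Icos, a costimulatory receptor, fell by 1.5. The other 2 lower members, named after their values were seen, were Btla (-1.16) and Ly9 (-0.92). Cd4 and Cd8a, the coreceptors of later thymocytes, lay within the olfactory range in both populations. Fewer higher members were called without any 1 of the 4 arrays, and fewest without DN3 replicate 2.

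Of 21 T lineage transcription factors 10 rose and 0 fell, with a median difference of 0.41. Lef1, an effector of Wnt signalling, measured 6.29 and 6.25 in CLP and 9.31 and 9.57 in DN3 (9.03-fold, adjusted p = 2.81e-07), and it was at 6.59 in DN2. Gata3, which is needed for T lineage entry, measured 5.04 and 5.41 in CLP and 7.85 and 8.19 in DN3 (6.96-fold), after 7.22 and 6.67 in ETP. Ets1 rose by 1.93, Ets2 by 1.75 and Tox by 1.48. Bcl11b, which closes other fates at commitment, rose by 1.12 from 6.05 and 6.08 to 7.26 and 7.11. Tcf7, a Notch-induced factor of the same family as Lef1, was not analysed here.

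Of 22 genes of the Notch pathway 6 rose and 0 fell, with a median of 0.15. The list holds Il2ra, Gata3 and Ptcra as genes responsive to Notch, so 3 of the 6 are also counted above. Hes1, a direct Notch target, measured 6.58 and 6.72 in CLP and 8.44 and 8.36 in DN3 (3.37-fold, adjusted p = 5.64e-06), and ETP had reached 8.19 and 8.27. Notch1, the receptor that starts T lineage development, rose by 1.10, with an adjusted p of 0.0537 without DN3 replicate 2. Notch3 rose by 0.68, with an adjusted p of 0.0723 without CLP replicate 2 and 0.138 without DN3 replicate 2. Dtx1, another target, differed by 0.47 (interval 0.14 to 0.81, adjusted p = 0.0842).

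E proteins and their Id inhibitors, which set the activity of E boxes in both lineages, included 2 higher and 2 lower of 10, with a median of -0.09. Tcf12 (HEB), an E protein used by thymocytes, rose by 1.44 from 8.53 and 8.77 to 10.04 and 10.15. Tcf4 (E2-2), an E protein of plasmacytoid dendritic cells, fell by 1.37, and Lyl1, a progenitor factor that pairs with E proteins, fell by 1.03. Id3, an inhibitor induced by pre-receptor signals, rose by 0.88 from 5.79 and 5.92 to 6.73 and 6.74. Id2 differed by -0.05 (interval -0.46 to 0.36).

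Of 15 B lineage transcription factors 7 fell in DN3 and 3 rose, with a median of -0.42. Fewer lower members were called without DN3 replicate 1 or DN3 replicate 2. A lower member named after its value was seen, Bach2 (-0.46), lay within the olfactory range in both populations. Its call was lost in several alternative fits. Ebf1, the factor that specifies B cells, measured 9.32 and 9.22 in CLP and 4.45 and 4.21 in DN3 (30.7-fold, log2 -4.94, interval -5.44 to -4.44, adjusted p = 2.96e-07). Every other population was within the olfactory range, with LMPP at 5.43 and 4.74. Pax5, which acts after Ebf1 in commitment, fell by 0.90, from 6.67 and 6.92 to 6.00 and 5.78. Mef2c, shared by B and myeloid precursors, measured 10.33 and 10.30 in CLP and 5.90 and 5.63 in DN3 (23.4-fold). Irf8, also a factor of dendritic cells, measured 7.93 and 9.12 in CLP and 5.74 and 5.96 in DN3, and its 6.39-fold difference was 9.67-fold without CLP replicate 1 and 4.23-fold without CLP replicate 2. Bcl11a, needed by lymphoid precursors, fell by 2.46. Bcl11a and Mef2c were also high outside CLP, with means of 9.35 and 9.63 in HSC, 9.54 and 10.10 in LMPP and 9.46 and 9.24 in ETP. Foxo1, which supports Rag and Il7r expression, fell by 0.65 with an adjusted p of 0.0666 without DN3 replicate 2. The 3 higher members were Lef1, which is also a T lineage factor, with Ikzf3 (1.47) and Spib (0.89), the latter 2 named after their values were seen. Spib had an adjusted p of 0.0554 to 0.139 without CLP replicate 1, DN3 replicate 1 or DN3 replicate 2.

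Of 18 genes of the pre-B cell receptor and B cell signalling 13 fell and 0 rose, with a median of -1.47. The number called was smaller without CLP replicate 1, DN3 replicate 1 or DN3 replicate 2. Blnk, the scaffold below the receptor, measured 8.59 and 9.12 in CLP and 4.90 and 4.85 in DN3 (15.8-fold, adjusted p = 3.67e-07). Cd72, an inhibitory coreceptor, fell by 3.53 and Btk, the kinase that acts with Blnk, by 3.03. Neither was particular to CLP. Btk had a mean of 8.67 in CLP, 9.01 in HSC, 8.82 in LMPP and 8.74 in ETP, and 8.52 in DN2. Cd72 had a mean of 9.18 in CLP, 7.44 in HSC, 8.56 in LMPP and 8.41 in ETP, and 8.33 in DN2. The Vpreb genes and Igll1, of the surrogate light chain and its relatives, fell by 1.87, 1.51 and 2.05: Vpreb1 from 11.09 and 10.91 to 9.11 and 9.15, Igll1 from 8.28 and 7.47 to 6.31 and 6.41 and Vpreb3 from 8.43 and 7.95 to 6.25 and 6.03. Vpreb1 thus stayed above the olfactory range in DN3, and it has a near copy, Vpreb2, so that signal may be shared between them. Vpreb2, named after its values were seen, differed by -1.59 to -1.35 when 1 of the 4 arrays was left out. The HSC arrays, at 7.29 and 9.21 for Vpreb1, widened its estimate of the spread, while the CLP and DN3 pairs each lay close together. The Vpreb1 call (adjusted p = 0.0282) was lost without any 1 of the 4 arrays (adjusted p 0.0809 to 0.153). Cd79b, a signalling chain, fell by 0.56 from 8.41 and 8.49 to 7.84 and 7.93. Among the 4 arrays, it lost its call only without DN3 replicate 1. Cd79a, the other chain, differed by -1.25 without passing the test (adjusted p = 0.0626), with CLP replicate 1 at 6.32 and CLP replicate 2 at 4.92. The mean of Cd79a lay within the olfactory range in both populations. Ly6d, which marks CLP biased to B cells, measured 10.64 and 10.68 in CLP and 10.65 and 10.60 in DN3 (interval of the difference -0.43 to 0.36). Ighm was measured by 3 probe sets that disagree: the one used differed by -0.16 and another by -2.36 (adjusted p = 0.0143 over all probe sets), and it was named after its values were seen.

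Ebf1 and Blnk had the largest differences of their lists, and the 250 bases before their starts are shown for comparison with the CD3 pair, with the same motifs in capitals. Ebf1 lies on the plus strand (chr11:44617850-44618099; 1 of 2 starts in the table) and Blnk on the minus strand (chr19:40994222-40994471).
Ebf1: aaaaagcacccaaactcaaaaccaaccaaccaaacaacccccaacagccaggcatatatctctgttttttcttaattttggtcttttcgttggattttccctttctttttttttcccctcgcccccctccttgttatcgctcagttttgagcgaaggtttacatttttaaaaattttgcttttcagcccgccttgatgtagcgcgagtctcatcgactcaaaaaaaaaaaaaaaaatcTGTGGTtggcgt
Blnk: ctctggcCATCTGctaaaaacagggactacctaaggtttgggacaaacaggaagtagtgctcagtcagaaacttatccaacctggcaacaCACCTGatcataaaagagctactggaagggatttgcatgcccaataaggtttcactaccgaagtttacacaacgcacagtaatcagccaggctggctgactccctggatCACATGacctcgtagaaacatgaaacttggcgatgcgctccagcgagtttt
The Ebf1 window held TGTGGT 1 time, beginning 12 bases before the start, and Blnk held CANNTG 3 times. TGTGGT occurred in 14.2% of the promoters in the table and CCCNNGGG in 11.7%, and the latter matched none of the 4 windows.

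Of 24 progenitor transcription factors 9 fell and 0 rose, with a median of -0.50. Hhex, used by early B and myeloid precursors, measured 9.96 and 10.36 in CLP and 6.06 and 5.90 in DN3 (18.1-fold). Meis1, a stem cell homeodomain factor, fell by 3.50 and Lmo2, a partner of Lyl1, by 2.92. Spi1 (PU.1), which supports myeloid and B fates, fell by 1.28 from 6.95 and 7.27 to 5.83 and 5.83. Mef2c and Bcl11a are shared with the B list.

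Of 24 receptor kinases and cytokine receptors 4 rose and 8 fell, with a median of -0.28. Flt3, the receptor that sustains lymphoid progenitors, measured 10.51 and 10.66 in CLP and 5.19 and 4.99 in DN3 (45-fold, log2 -5.49, interval -5.81 to -5.17, adjusted p = 1.35e-08), the largest lower difference under the naming rule. ETP were still at 8.55 and 8.66 and DN2 at 5.23. Il18r1, a chain of the interleukin 18 receptor, fell by 3.68. Il7r, the receptor both lineages need, measured 10.75 and 10.66 in CLP and 9.68 and 9.81 in DN3, a fall of 0.96 with an adjusted p of 0.055 without DN3 replicate 1. Kit fell by 1.13, with an adjusted p of 0.0606 without CLP replicate 1 and 0.103 without DN3 replicate 2. Besides Il2ra, Il17rb rose by 2.70 and Ifngr1, a chain of the interferon gamma receptor, by 1.37. The fourth, Tgfbr1, a TGF-beta receptor chain named after its value was seen, rose by 1.20. The lower members numbered 5 without CLP replicate 1, without DN3 replicate 1 or without DN3 replicate 2.

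Chemokine receptors, integrins and homing genes included 4 higher and 4 lower of 23, with a median of -0.17. Cd34, a progenitor sialomucin, measured 9.65 and 10.04 in CLP and 5.39 and 5.78 in DN3 (19.1-fold). Cx3cr1, a chemokine receptor of myeloid cells, fell by 1.11 and S1pr1, which guides exit from the thymus, by 0.88. Itga6, a laminin receptor chain, rose by 1.30 and Ccr9, which draws precursors to the thymus, by 0.87. Ccr9 had an adjusted p of 0.0848 to 0.244 without CLP replicate 1, CLP replicate 2 or DN3 replicate 2, and the higher members numbered 1 or 2 without any 1 of the 4 arrays. The others, named after their values were seen, were Itgb1 (0.62) and Itgae (0.58, within the olfactory range in both), with adjusted p of 0.118 and 0.235 without DN3 replicate 2, and Ccr7, which fell by 0.72 with 0.0946 without that array.

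Of 9 genes of class II presentation 4 fell and 0 rose, with a median of -0.49. H2-Ob, a chain of the modulator DO, measured 10.07 and 9.87 in CLP and 5.77 and 6.10 in DN3 (16.4-fold), and Ctss, the protease that trims the invariant chain, 9.77 and 9.65 against 5.67 and 5.48. H2-DMa, a chain of the peptide editor DM, fell by 1.73 with an adjusted p of 0.0505 without DN3 replicate 2. H2-Oa fell by 0.52 and lost its call without any 1 of the 4 arrays (adjusted p 0.0586 to 0.284), and 2 members were called without DN3 replicate 2. H2-Ab1, a chain of the presenting molecule, differed by -0.49 without passing the test and Cd74, the invariant chain, lay within the olfactory range in both populations, and both were named after their values were seen.

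The Gimap genes, a cluster of GTPases that support lymphocyte survival, fell in 6 of 8 members and rose in 0, with a median of -0.98. Gimap4 measured 9.57 and 9.77 in CLP and 6.05 and 5.52 in DN3 (14.8-fold, adjusted p = 1.01e-06), and Gimap7 10.09 and 10.28 against 7.41 and 7.18. Gimap6 fell by 1.93, Gimap8 by 1.06 and Gimap3 by 0.89. CLP were above the stem cells as well, with Gimap4 at 7.01 and 6.47 in HSC and 6.83 and 7.07 in LMPP.

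Of 17 genes of sterol synthesis 10 rose and 0 fell, with a median of 0.99. Fewer were called without CLP replicate 1, DN3 replicate 1 or DN3 replicate 2, and more without CLP replicate 2. Idi1, an isomerase of the isoprenoid steps, measured 7.51 and 7.18 in CLP and 9.36 and 9.68 in DN3 (4.52-fold, adjusted p = 0.00158). Hmgcs1, at the entry to the pathway, rose by 1.58, Sqle, which makes squalene epoxide, by 1.57, Cyp51, a demethylase, by 1.47 and Fdps, a prenyl transferase, by 1.41. The difference was present in DN2, where Hmgcs1 was at 8.95 and Idi1 at 8.64. Insig1, a sensor that restrains the pathway, differed by 0.02 and Srebf2, its transcription factor, by 0.40, and neither was called (both named after their values were seen). Of 17 glycolytic genes 4 rose and 0 fell, with a median of 0.34, led by Ldhb, a lactate dehydrogenase chain, which rose by 1.44, and Slc16a1, a lactate carrier, by 1.37. Pfkp, a phosphofructokinase, rose by 0.87 and Ldha by 0.59, with adjusted p of 0.0788 to 0.101 for Ldha without CLP replicate 1, DN3 replicate 1 or DN3 replicate 2.

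The immediate early and stress list, of 25 measured genes, had 12 lower members and 1 higher, with a median of -0.57. Fewer lower members were called without CLP replicate 1, DN3 replicate 1 or DN3 replicate 2, and more without CLP replicate 2. Zfp36, which destabilises messages, measured 8.92 and 8.76 in CLP and 6.07 and 5.83 in DN3 (7.39-fold), and Jun 9.84 and 9.51 against 7.05 and 7.0 (6.28-fold). Fos fell by 1.76, with CLP replicates at 7.77 and 6.93, and the phosphatases Dusp6 and Dusp1 by 2.10 and 1.73. The higher member was Btg2, an inhibitor of proliferation, which rose by 0.63 with an adjusted p of 0.172 to 0.253 without CLP replicate 2, DN3 replicate 1 or DN3 replicate 2 and was named after its value was seen. Such genes respond to the handling of cells as well as to signals. Jun was at 9.66 to 9.88 in HSC and LMPP of the marrow and at 6.67 to 7.08 in ETP and DN2 of the thymus. Zfp36 (8.19 to 9.18 against 6.53 to 7.09), Fos (7.35 to 7.53 against 5.30 to 5.99) and Dusp1 (8.61 to 9.37 against 6.72 to 7.21) divided in the same way. Dusp6 did not divide by tissue, with 7.58 and 7.66 in ETP against 6.99 and 6.49 in HSC. The part of tissue or handling in these differences cannot be told apart from that of population.

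**Figure D3:**
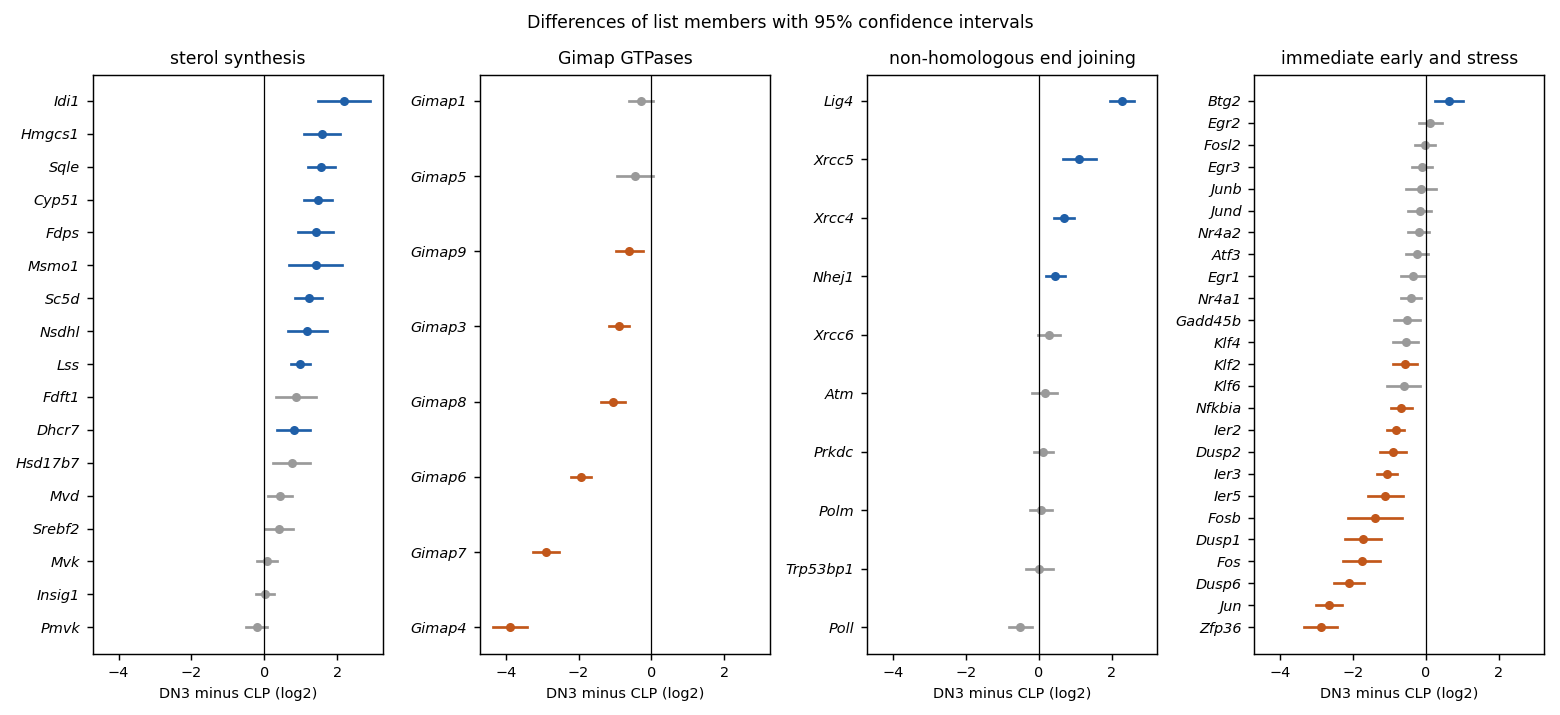
Difference between DN3 and CLP (log2, positive when higher in DN3) for each measured member of 4 gene lists, with 95% confidence intervals from the fit. Blue members were called higher, orange lower and grey not called; sterol synthesis had 10 of 17 higher, Gimap genes 6 of 8 lower, end joining 4 of 10 higher and immediate early genes 12 of 25 lower.

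Of 29 genes of DNA replication 2 rose (Tyms by 0.54 and Rrm2 by 0.51, both making DNA precursors), and 0 of 28 genes of G2 and mitosis were called by limma, with 5 at an unadjusted p under 0.05, all higher, and a largest difference of 0.60 for Plk1 (interval 0.03 to 1.18, adjusted p = 0.223). Tyms lost its call without any 1 of the 4 arrays (adjusted p 0.0517 to 0.12) and Rrm2 without CLP replicate 1, DN3 replicate 1 or DN3 replicate 2 (0.0629 to 0.199), and both did so with quantile normalization once more. Among cyclins and inhibitors, Cdk6, a G1 kinase, rose by 0.64 and Ccnd1 fell by 0.80. Cdk6 lost its call without any 1 of the 4 arrays (adjusted p 0.0607 to 0.234), and Ccnd1 without CLP replicate 2, DN3 replicate 1 or DN3 replicate 2 (0.0638 to 0.149). None of 14 genes of the Bcl2 family, which set survival, was called by limma, 3 had an unadjusted p under 0.05, and Bcl2l1 had the largest difference at 0.43 (interval 0.01 to 0.84). Of 22 TNF superfamily genes 1 fell, Tnfrsf13c, the BAFF receptor of B cells, by 1.16. Of 20 genes of DNA methylation and Polycomb 1 fell, Tet2 by 0.59, and its call was lost without CLP replicate 1, DN3 replicate 1 or DN3 replicate 2 (adjusted p 0.072 to 0.281).

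Of 19 interferon-stimulated genes 5 fell and 0 rose, with a median of -0.49. Ifitm1, a membrane protein that blocks virus entry, measured 9.81 and 9.92 in CLP and 7.44 and 7.54 in DN3 (5.18-fold), and Ifitm3 11.70 and 11.84 against 9.61 and 9.44. Ifit3, Oasl2 and Irf9 fell by 1.44, 0.77 and 0.73, and Ifit3 has a near copy with which it may share signal. Each of these 3 lost its call without DN3 replicate 1 and without DN3 replicate 2 (adjusted p 0.0538 to 0.276), Ifit3 and Oasl2 also without CLP replicate 1 (0.0721 and 0.142) and Oasl2 and Irf9 without CLP replicate 2 (0.124 and 0.0887). The list had 3 called members without CLP replicate 1 and 2 without either DN3 array.

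**Figure D4:**
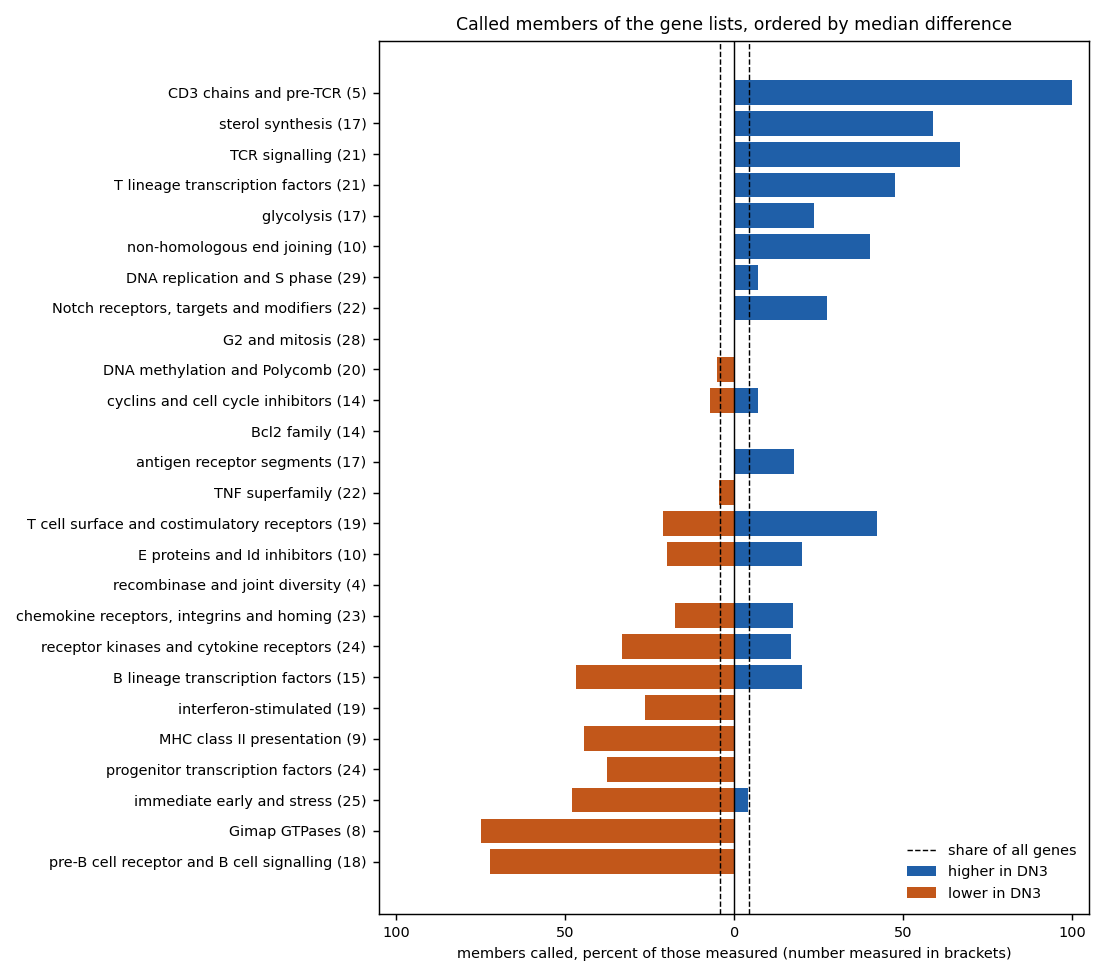
Share of the measured members of each gene list that were called higher (blue, to the right) or lower (orange, to the left) in DN3, in percent, ordered by the median difference of the list, with the number of measured members in brackets. Dashed lines mark the shares over all genes, 4.51% higher and 4.18% lower; the CD3 and pre-T cell receptor list reached 100% higher, and the Gimap and pre-B cell receptor lists 75.0% and 72.2% lower.

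For the lists with calls in only 1 direction, limma put no member in the other at an unadjusted p under 0.05 either, except 1 lower gene each of end joining, Notch and the receptor segments, 2 lower T lineage factors and 2 higher TNF superfamily genes.

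Some of the largest differences fell outside these pathways. Gzma, a granule protease of killer cells, measured 5.23 and 4.82 in CLP and 11.16 and 11.20 in DN3 (71.4-fold), after 9.53 in DN2. Khdc1a, of a family with KH domains, measured 4.0 and 3.90 against 9.81 and 9.63, and Aqp11, an aquaporin, 5.80 and 5.92 against 11.15 and 11.34. Dgkeos, a transcript on the strand opposite Dgke, rose by 4.47, and its signal is uncertain where the genes overlap, as is that of Khdc1a, which has close relatives beside it.

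On the lower side Ly86 (MD-1), which pairs with Cd180 (RP105) on B cells, measured 10.30 and 10.04 in CLP and 5.11 and 5.27 in DN3 (31.6-fold), and Cd180 measured 10.08 and 10.32 against 5.65 and 5.96. Cd69, an early activation receptor, fell 28.0-fold, with DN3 replicates at 5.31 and 6.39. Mpeg1, a pore-forming protein of phagocytes, fell 25.5-fold and Adgrl4, an adhesion receptor, 25.0-fold. Tyrobp (DAP12), an adaptor of innate receptors, measured 11.35 and 11.34 in CLP and 6.56 and 7.08 in DN3, and was still at 11.24 in DN2.

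Markers of other cell types were counted in the same way. Of 10 plasmacytoid dendritic cell markers 6 were lower in DN3 and 2 higher, and their mean log2 level was 7.66 and 7.90 on the CLP arrays and 6.46 and 6.51 on the DN3 arrays. Cox6a2 fell by 3.80, Tlr7 by 3.39 and Siglech, the surface lectin that defines the cell, by 2.46. Of 15 myeloid markers 6 were lower and 2 higher (mean level 6.22 and 6.32 against 5.74 and 5.76): Mpo, the granule peroxidase, fell by 3.99, S100a8 and S100a9 rose by 1.06 and 1.54, and Elane, Ms4a3, Ngp and Ltf lay within the olfactory range in both. Of 12 natural killer and innate markers 4 were lower and 1, Gzma, higher (6.89 and 6.66 against 6.06 and 6.02), with Klrd1 lower by 4.12 and Ncr1 and Eomes within the olfactory range in both. Of 9 macrophage markers 1, Mpeg1, was lower and 6 lay within the olfactory range. Of 7 mast cell and basophil markers 1 was higher, Cpa3, a mast cell protease that early T precursors also express, which rose by 3.69. Fcer1a, the receptor chain that defines mast cells and basophils, lay within the olfactory range in both. Of 12 markers of thymic epithelium and stroma 1, Epcam, was higher by 1.90 and 1, Pecam1, was lower, with a difference of -0.87, and Krt5 and Psmb11 lay within the olfactory range in both (mean level of the list 6.31 and 6.19 against 6.32 and 6.25). Pecam1 lost its call without any 1 of the 4 arrays (adjusted p 0.0599 to 0.172). Genes named here only as markers were chosen after their values were seen. Of 9 markers of double positive and mature thymocytes 4 were lower (Cd69, S1pr1, Ccr7, Klf2) and 2 higher (Cd8b1, Itm2a), with a mean level of 6.79 and 6.48 against 6.14 and 6.16. Of 8 gamma delta and natural killer T cell markers 2 were higher (Il17rb, Cd160) and 1 lower (Blk), and of 9 erythroid and megakaryocyte markers 1, Car2, was lower. Calls of S100a8, Cd160, Klf2, Ccr7 and Blk were lost without 1 or more of the 4 arrays, with adjusted p of 0.161, 0.0686, 0.15, 0.0541 and 0.086 without DN3 replicate 1. Without DN3 replicate 1 the lower myeloid markers numbered 2. The plasmacytoid markers called higher were Ccr9 and Spib, of which 0 were called without CLP replicate 1 or DN3 replicate 2. The part of other cells in the differences of Irf8, Tcf4, Mpeg1, Tyrobp and the class II genes was not tested.

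Of 287 measured microRNA genes 3 rose and 8 fell, beside the 8.69% called over all genes. They report RNA of the locus, not the mature microRNA. Mir363 measured 3.04 and 3.10 in CLP and 7.11 and 7.12 in DN3 (16.5-fold, adjusted p = 4.72e-06), with 6.69 in DN2. It is the last gene of a cluster on the X chromosome whose other measured genes, Mir106a, Mir20b, Mir19b-2 and Mir92-2, differed by -0.10, 0.56, -0.19 and 0.05, were not called and lay within the olfactory range. Mir181b-1, from a family that tunes receptor signalling in thymocytes, rose by 1.76 from 4.40 and 4.82 to 6.47 and 6.27, and Mir142, of blood cells in general, fell by 2.65 with CLP replicates at 7.81 and 6.67. Those 3 kept their calls without any 1 of the 4 arrays, and the other called microRNA genes each lost theirs without at least 1 of them. The mature sequences of these genes and of the cluster member that shares a seed with miR-363 are given with the seed, bases 2 to 8, in capitals (RefSeq, GRCm38.p6). They lie at chrX:52741697-52741718 and chrX:52741854-52741874 on the minus strand, chr1:137966650-137966673 on the plus strand and, for miR-142a-3p, chr11:87756903-87756925 on the plus strand.
miR-363-3p: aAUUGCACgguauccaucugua
miR-92a-3p: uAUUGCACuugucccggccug
miR-181b-5p: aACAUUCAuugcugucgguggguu
miR-142a-5p: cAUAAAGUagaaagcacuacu
miR-142a-3p: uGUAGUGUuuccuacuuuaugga
The first pair has the seed AUUGCAC in common and the others have seeds of their own. The genes beyond Mir363 were named after their values were seen.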

How the data were processed

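RNA of 6 mouse populations was hybridised to 11 Affymetrix whole-transcript arrays, 2 for each population and 1 for DN2, after Trizol extraction and biotin labelling per the labels' protocols. The deposited values are log2 intensities from RMA by the authors, per the submitters' processing notes. Its version, and the genome build behind the probe sets, were not given in the sources used here. Of 35556 probe sets, 21789 had 1 gene symbol in the platform table, 1621 had several and 12146 had none. Symbols were updated through Entrez identifiers, of which 21698 were found in RefSeq (GRCm38.p6). The probe set with the highest mean stood for each of 19938 genes, and 999 genes had more than 1.

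limma 3.58.1 in R 4.3.3 fitted 6 group means over all 11 arrays (5 residual degrees of freedom, prior 5.39) with no block, and the contrast DN3 minus CLP was tested two-sided over all genes. Genes were called at an adjusted p under 0.05, and intervals are 95% intervals of the moderated fit. The fit was also run on simulated data with planted changes, which checks the code and not the calls made here. Tables and plots used Python 3.11.15, pandas 2.3.3 and matplotlib 3.10.9. Arrays carry no depth, and their number limits the precision.

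Named were the 12 highest and 12 lowest differences among called genes without overlap, leaving out predicted genes, antigen receptor segments, histones and olfactory receptors, with up to 5 called members of each list, all recombinase and CD3 members and a panel of lineage genes. The members and lists were chosen with earlier results of these data known. Signalling motifs of receptor proteins were not analysed here. Alternatives varied the samples, a block, filters, scaling, probe sets, features, prior, array weights and thresholds, and left out each array in turn.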

Additional observations from a re-analysis of the deposited data

How the results depend on the processing

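The 1733 calls (900 higher, 833 lower in DN3) became 936 (421 and 515) at an adjusted p under 0.01 and 677 (278 and 399) when at least a 2-fold difference was asked as well. Leaving out each of the 11 arrays gave 845 to 1882 calls in all, 354 to 988 higher and 491 to 894 lower, and the low ends came without DN3 replicate 2. The other alternatives over genes gave 1518 calls with the CLP and DN3 arrays alone to 2183 with array weights. Testing all 35556 probe sets gave 1388 calls, which count probe sets and not genes. The split of higher and lower was 778 and 894 with quantile normalization once more and 1005 and 689 with centred arrays. A replicate block over the 11 arrays gave 1707 calls (905 and 802). Deviations of same-numbered arrays correlated at 0.0703 between CLP and DN3 and at -0.258 to 0.283 over all pairs of populations, so the numbers were not taken to pair samples. The fit of all probe sets and the stricter thresholds were left out of the next count. A gene that a filter removed was counted as kept in that fit. Of the 107 called genes among the 119 that the naming rule gave, none turned sign in the remaining alternative fits. Of these 107, 84 kept their call in all of those fits. The rest lost it mostly without 1 array of the pair: 12 without CLP replicate 1, 11 without CLP replicate 2, 15 without DN3 replicate 1 and 20 without DN3 replicate 2. With 1 array left in a population, that array is assumed to vary like the other populations. Differences are least certain for low signals: 128 higher and 228 lower genes had the lower population within the olfactory range, and 26 and 65 had both.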

Other observations

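Some groups of genes outside the lists stood out, and they were chosen after the values were seen. Their counts are therefore descriptions, as are those of the lists. Of 8 guanylate-binding proteins, GTPases of cell-autonomous defence, 4 rose in DN3 and 1 fell, with a median difference of 1.03, while the interferon-stimulated list had 0 higher members. Gbp4 measured 6.44 and 6.59 in CLP and 10.26 and 10.31 in DN3 (13.7-fold, limma adjusted p = 1.23e-06). Gbp8 rose by 2.25, Gbp9 by 2.09 and Gbp11 by 1.46, and Gbp3 fell by 0.72 with an adjusted p of 0.109 without CLP replicate 2 and 0.204 without DN3 replicate 2. These genes are close relatives in 2 clusters of near copies, so the signal of any 1 of them is uncertain. Of 10 genes of the HIN200 family, sensors of nucleic acids, 5 fell and 0 rose: Ifi214 by 2.29, Ifi206 by 1.94, Ifi209 by 1.63, Aim2 by 1.18 and Ifi203 by 0.86.

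The 4 genes of the interleukin 18 receptor pair and the RP105 pair fell together, with a median of -4.24. Il18rap measured 9.24 and 9.38 in CLP and 5.13 and 5.32 in DN3 (17.0-fold), beside its partner Il18r1, and Ly86 fell beside its partner Cd180. Of 8 genes of the kynurenine pathway of tryptophan breakdown 3 fell and 0 rose. Kmo, the monooxygenase, measured 8.80 and 8.92 in CLP and 5.81 and 5.84 in DN3, and fell by 3.04, with Kynu lower by 2.49 and Haao by 1.78.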
